A study of Mus musculus with 12 samples.

Results

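The genes described here are the mouse genes named Zfp followed by a number, most of which code for proteins with zinc fingers. They were selected on their names and on their read counts. Of 21958 genes in the deposited table, 396 carry such a name, and the 275 with a mean of 50 or more counts over all 12 samples were taken as members. The remaining 121 fell short of that count, among them 12 with a mean of 0. Zfp94 was just inside, with a mean of 50.9 counts, and Zfp697 just outside, with 49.8. The mean over all groups does not compare groups, but 18 members were under 50 counts in at least 1 group (11 in control, 1 in model, 8 in cornus), so these entered through the groups where they were higher. Of the members named below, Zfp982, Zfp114, Zfp109 and Zfp619 were under 50 in control, at means of 15.2, 20.2, 32.8 and 37.2 counts, Zfp985 in model and cornus and Zfp94 in cornus.

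RNA of wild-type mouse bone marrow cells was sequenced after poly(A) selection in 3 groups of 4 samples. Control mice had no treatment. CTX was used to suppress the marrow of the model group. The cornus group was given nanoparticles that assemble themselves from material of the plant Cornus officinalis, and whether these mice had CTX too is not stated. Strain, age, dose and time are not given in the sources used here, and no label ties the 4 samples of a group to separate animals, so a p-value speaks of the spread between samples, which may be technical. Marrow holds many cell types, and in such bulk RNA fewer cells of a type and less RNA per cell cannot be told apart.

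Zinc fingers of the C2H2 kind are short folds in which a pair of cysteines and a pair of histidines hold a zinc ion, and a row of them reads a stretch of DNA. Many Zfp genes also code for a KRAB domain. It binds the corepressor Trim28 (KAP1), which brings the histone methyltransferase Setdb1 and heterochromatin proteins to the bound site. KRAB zinc finger proteins are known for silencing retroelements and for keeping imprints, and their genes arose by repeated duplication and stand in clusters.

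All 275 identifiers matched GENCODE M21, and the longest open coding sequence of each gene was translated. A C2H2 pattern was found in 271 members, with a median of 10 and up to 36 fingers. Zfp36, Zfp330, Zfp703 and Zfp839 had none. Zfp36 codes for tristetraprolin, which has fingers of another kind and speeds the decay of mRNAs with AU-rich elements. A pattern of the KRAB A box was found in 157 members, and 118 had none. The deposited positions placed 68 members on chromosome 7, 41 on chromosome 17, 28 on chromosome 13 and 18 on chromosome 8. The genome build of these positions is not named, and they are given as deposited. With FPKM, counts per length and depth, the mean level over all samples ran from 0.289 to 60.0 with a median of 3.47.

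Promoter windows are shown for 5 members, Zfp961 and some of the members with the largest rises and falls in model that have a single window. They were taken from RefSeq (GRCm38.p6), run from 250 bases before the transcript start to 50 after it on the gene's strand, and are 5′ to 3′ with each CG in capitals. Zfp961 lies at chr8:71950816-71951115 on the plus strand, Zfp971 at chr2:178023034-178023333 (plus), Zfp619 at chr7:39517516-39517815 (plus), Zfp1 at chr8:111643193-111643492 (plus) and Zfp653 at chr9:22071327-22071626 (minus).
Zfp961: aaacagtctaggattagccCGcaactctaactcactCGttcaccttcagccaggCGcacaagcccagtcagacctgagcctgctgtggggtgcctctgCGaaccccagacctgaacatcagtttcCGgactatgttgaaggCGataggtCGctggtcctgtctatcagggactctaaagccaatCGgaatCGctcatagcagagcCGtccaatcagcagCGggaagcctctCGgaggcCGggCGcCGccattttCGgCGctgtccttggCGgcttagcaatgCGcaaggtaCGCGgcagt
Zfp971: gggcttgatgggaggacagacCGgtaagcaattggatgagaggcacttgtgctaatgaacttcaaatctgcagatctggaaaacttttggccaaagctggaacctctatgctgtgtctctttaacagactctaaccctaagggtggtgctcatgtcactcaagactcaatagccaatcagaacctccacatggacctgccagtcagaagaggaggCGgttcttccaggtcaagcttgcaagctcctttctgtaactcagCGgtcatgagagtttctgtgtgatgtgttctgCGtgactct
Zfp619: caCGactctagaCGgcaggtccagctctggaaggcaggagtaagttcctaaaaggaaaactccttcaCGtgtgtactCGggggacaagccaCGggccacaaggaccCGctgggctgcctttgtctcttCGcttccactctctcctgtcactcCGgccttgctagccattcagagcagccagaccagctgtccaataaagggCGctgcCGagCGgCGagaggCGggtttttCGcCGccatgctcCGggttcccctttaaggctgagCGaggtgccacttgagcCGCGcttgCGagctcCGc
Zfp1: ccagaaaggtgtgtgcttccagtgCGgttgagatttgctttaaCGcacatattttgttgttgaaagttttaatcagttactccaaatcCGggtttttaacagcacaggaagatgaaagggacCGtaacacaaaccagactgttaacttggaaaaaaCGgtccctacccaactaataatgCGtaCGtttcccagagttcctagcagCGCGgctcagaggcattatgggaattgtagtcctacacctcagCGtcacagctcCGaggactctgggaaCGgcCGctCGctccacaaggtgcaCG
Zfp653: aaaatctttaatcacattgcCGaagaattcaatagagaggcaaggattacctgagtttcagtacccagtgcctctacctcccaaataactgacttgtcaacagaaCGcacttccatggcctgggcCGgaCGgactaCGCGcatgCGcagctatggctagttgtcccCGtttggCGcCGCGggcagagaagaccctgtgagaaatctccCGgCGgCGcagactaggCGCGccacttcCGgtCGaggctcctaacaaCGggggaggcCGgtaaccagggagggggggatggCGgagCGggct

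A window was found for 233 of the 275 members, 283 windows in all, and for 12795 windows of tested genes. The count of CG was 21 in the windows of Zfp961 and Zfp619, 4 in that of Zfp971, 15 in that of Zfp1 and 22 in that of Zfp653. Its median was 10 over 160 windows of KRAB members, 22 over 123 windows of the other members and 20 over all tested genes. Letters searched on either strand were those of the CCAAT box (CCAAT), the GC box (GGGCGG), an ETS site (CCGGAAGT), an NRF1 site (GCATGCGC), a YY1 site (AAGATGGC), the CRE (TGACGTCA), the E-box (CACGTG) and the TATA box (TATAAA). No motif here lies within another. CCAAT was found in 57.5% of KRAB member windows, in 37.4% of the windows of other members and in 37.8% of those of all tested genes. The GC box was found in 35.6%, 65.0% and 60.4%, respectively. The other 6 sets of letters were in 3.12% to 10% of KRAB member windows and in 2.88% to 9.64% of all tested windows. Zfp961, Zfp971 and Zfp619 hold CCAAT, Zfp619 also an E-box, Zfp653 the ETS and NRF1 letters, and Zfp1 none of the 8. Of the windows not shown, that of the riser Zfp109 holds none of the 8. Among the fallers not shown, Zfp444 holds a GC box and Zfp688 none. A match is a description of letters and not of binding.

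Library totals ranged from 13902122 to 19139771 counts. Controls 1 to 3 were nearly identical: over genes, the chi-square per degree of freedom between them was 1.71 to 1.93, against 13.6 to 160 for any other pair of one group. In the text below, a gene therefore rose or fell against control only if it passed edgeR's quasi-likelihood test (Benjamini-Hochberg adjusted p under 0.05 over 12549 tested genes) with the 12 libraries and again with controls 1 to 3 summed to 1 sample. All 275 members were tested. Control 4 stood apart from the other controls, with 9.80% of its counts from hemoglobin genes against 2.45% to 2.49%; the model libraries had 0.0249% to 0.942% and the cornus libraries 0.0218% to 1.57%. Of the marker lists, B lineage markers summed to 917 to 2116 CPM (counts scaled to a common library size) in control, 85.5 to 129 in model and 13.6 to 177 in cornus, and eosinophil markers to 4079 to 5595, 97.2 to 675 and 114 to 173 CPM. Early neutrophil markers summed to 2550 to 2998 CPM in control, 4384 to 7609 in model and 3771 to 6930 in cornus, and no marker of any list was at 0 in a whole group. Late neutrophil markers summed to 48809 to 76805 CPM in control, 28474 to 56817 in model and 56244 to 85584 in cornus, and monocyte markers to 577 to 1967, 2045 to 4484 and 3190 to 4159. T and NK markers summed to 117 to 145, 18.4 to 98.7 and 38.2 to 77.2 CPM, macrophage markers to 224 to 303, 152 to 236 and 164 to 255, and stem and progenitor markers to 143 to 179, 208 to 273 and 114 to 238. Erythroid markers summed to 27739 to 111090 CPM in control, 360 to 12504 in model and 289 to 19148 in cornus. The part of these differences in the results below was not tested.

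Zfp members were higher more often than lower in the CTX model. They took 0.654% to 0.741% of all counts in control, 0.835% to 0.951% in model and 0.777% to 0.834% in cornus, so control lay below both other groups and cornus below model, with no overlap. Without the hemoglobin counts in the total these shares were 0.725% to 0.760%, 0.839% to 0.951% and 0.777% to 0.847%, and cornus then overlapped model. In model against control 84 members (30.5%) rose and 20 (7.27%) fell. The members counted include the 11 under 50 counts in control, which entered through the groups where they were higher. Among all tested genes the share was 17.7% higher and 15.9% lower. The tested genes include some under the count of 50, which the members by rule do not, so the 2 sets differ in level. By the 12-library fit alone 110 members (40.0%) were higher and 28 (10.2%) lower, against 23.2% and 20.9% of all genes. The median log2 change was 0.22 over the members and 0.00 over all genes, and 69.1% of members had a higher value in model. Of the 54 Zfp genes under the count of 50 that could be tested, 4 rose and 2 fell, with a median of 0.12.

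**Figure D1:**
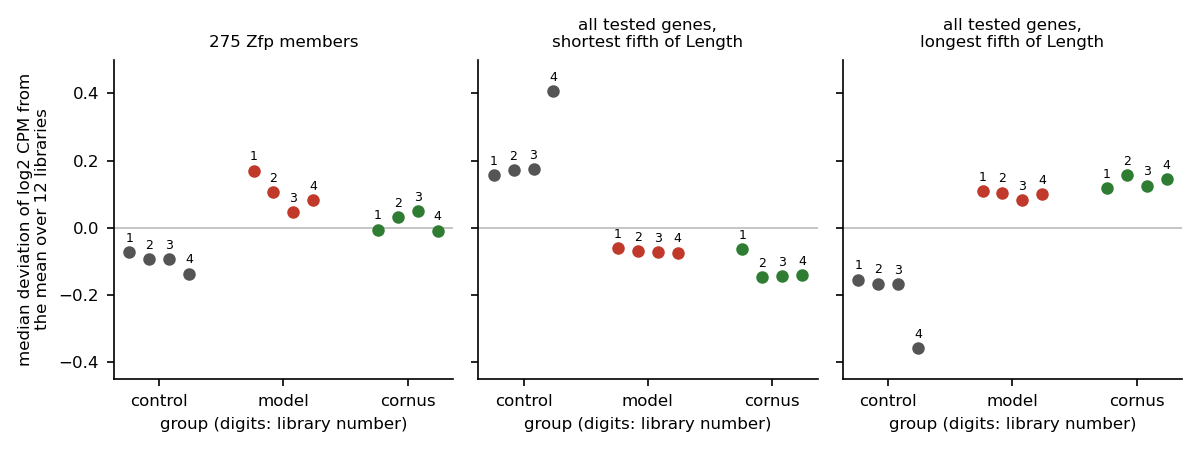
Each point is 1 library, numbered within its group; the y axis is the median over genes of log2 CPM minus the gene's mean over the 12 libraries, for the 275 members (left) and for all tested genes in the shortest (middle) and the longest (right) quintile of the deposited Length. Members lay at -0.14 to -0.07 in control, 0.05 to 0.17 in model and -0.01 to 0.05 in cornus, and control 4 lay farthest out in both length quintiles.

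Counts differed with the KRAB domain and the number of fingers. The counts of this paragraph stand beside 17.7% of all tested genes that rose and 15.9% that fell. Among the 157 KRAB members 52 rose and 4 fell, with a median log2 change of 0.30. Among the 118 other members 32 rose and 16 fell, with a median of 0.12. Of the 11 members under 50 counts in control, all but Zfp473 have the KRAB match. For these a higher value in model or cornus had to appear, and no count was made without them. Members with 10 or more fingers (153) gave 54 rises and 4 falls, and those with 1 to 9 fingers (118) gave 30 and 15. Genes of the same kind with other names gave like counts: of 32 genes with at least 3 C2H2 fingers and a KRAB match that are not named Zfp, 15 rose and none fell, with a median of 0.44. None of these 32 was lower at an unadjusted p under 0.05 in edgeR, and 20 were higher. Of 115 such genes with no KRAB match 36 rose and 12 fell, with a median of 0.18. Counts by neighbourhood were close: of 125 members with at least 3 Zfp genes within 250 kb 31.2% rose and 6.40% fell, and of 102 with none 32.4% rose and 9.80% fell. By chromosome, 15 of 41 members on chromosome 17 rose and none fell, while 4 of 9 on chromosome 15 fell and none rose; both were chosen after their values were seen. Of 68 members on chromosome 7, 19 rose and 5 fell, and of 18 on chromosome 8, 2 rose and 4 fell. The differences between these sets were not tested.

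The members were set beside the length trend of the table. Longer genes were higher in model and cornus than in control: the Spearman correlation of log2 change with the deposited Length over 12549 genes was 0.32 in model against control, 0.36 in cornus against control and 0.11 in cornus against model. These are correlations across genes, which share the libraries and are not independent. Over the 275 members they were 0.20, 0.22 and 0.01. The median Length was 4868 bases for members and 4486 for all tested genes. In the shortest quintile of genes (quintiles by Length, in equal numbers of tested genes) the median log2 change in model against control was -0.29 over all genes and -0.01 over 29 members. In the next quintiles it was -0.13 against 0.14 (60 members), -0.02 against 0.22 (68 members), 0.12 against 0.25 (66 members) and, in the longest quintile, 0.31 against 0.31 (52 members). So the members were above other genes of their length in the 4 shorter quintiles and level with them in the longest. KRAB members had medians of 0.09, 0.23, 0.37, 0.29 and 0.54 from the shortest to the longest quintile, above all genes in each. The medians of this paragraph keep the 11 members under 50 counts in control, all but Zfp473 with the KRAB match. These entered through the groups where they were higher, which raises the medians by rule, and no median was made without them. The other members (12, 15, 23, 37 and 31) had -0.08, -0.17, 0.08, 0.19 and 0.23, which is below all genes in the second quintile and in the longest. With the length trend removed they stood at -0.03 in the longest quintile, where all genes had 0.07.

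**Figure D2:**
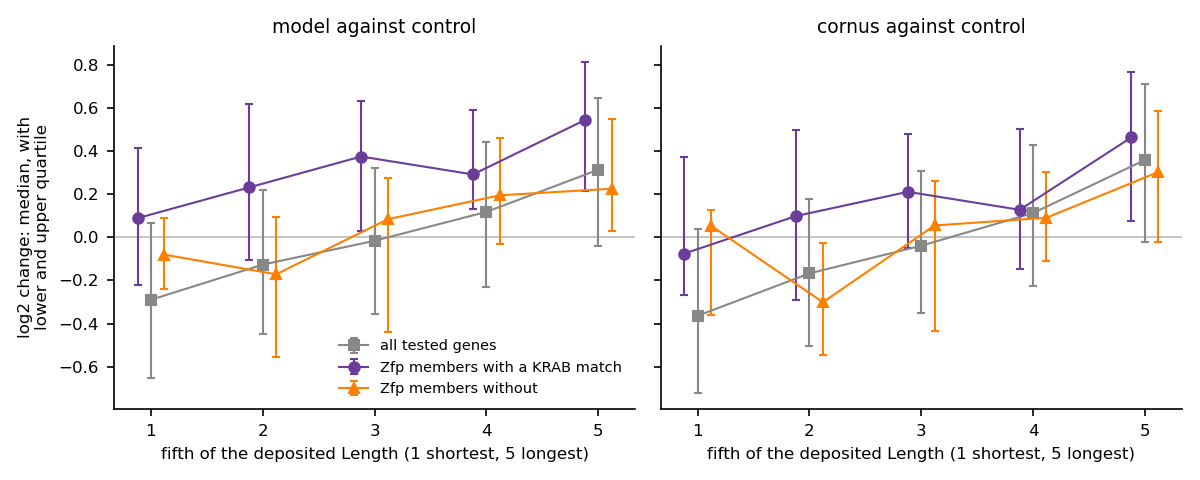
Median log2 change against control (points) with the lower and upper quartile (bars) in quintiles of the deposited Length, for all tested genes (grey), KRAB members (purple) and other members (orange); left model, right cornus. In model against control the medians of all genes rose from -0.29 to 0.31 and those of KRAB members from 0.09 to 0.54. The members include those under 50 counts in control, which entered through the groups where they were higher.

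With the length trend removed from each library, the correlation in model against control was 0.01 over all genes and -0.12 over members, from 0.20. The offset, set on all genes, thus took out more than the members' own trend. The members' median log2 change was still 0.22, where that of all genes was 0.05. In that fit 106 members (38.5%) were higher and 18 (6.55%) lower, against 21.0% and 15.3% of all tested genes. The 11 members under 50 counts in control are kept in this median and in these counts. Which members counted did depend on it: the long genes Zfp451, coding for a SUMO ligase, and Zfp638, whose RNA-binding protein silences unintegrated retroviral DNA, had log2 changes of 0.40 ± 0.08 and 0.35 ± 0.08 (SE) before and 0.02 and -0.02 after, with edgeR adjusted p of 0.917 and 0.851. Their deposited Lengths are 15839 and 15810 bases.

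The 8 members with the largest rise in model were all KRAB genes. They were picked among members whose model and control values do not overlap, so that separation was set by the choice. Of them, Zfp982, Zfp114, Zfp109 and Zfp619 were under 50 counts in control. Zfp982, on chromosome 4 at 147576874 to 147597943, stood at 0.674, 0.829, 1.69 and 0.713 CPM in controls 1 to 4, at 9.76, 4.12, 5.85 and 10.9 in model and at 8.52, 6.26, 6.33 and 6.16 in cornus. Every model and cornus library lay above every control. With a control mean of 15.2 counts it is a member through the groups where it was higher, so a higher value had to appear, and its changes are a description. The log2 change was 2.97 ± 0.37 (SE; n = 4 and 4) in model and 2.79 ± 0.37 in cornus against control. Zfp971, on chromosome 2 at 177665077 to 177675815, had 6.86, 6.33, 6.35 and 2.99 CPM in control, 26.6, 16.7, 33.5 and 24.5 in model and 27.7, 23.5, 34.4 and 26.6 in cornus. The log2 changes were 2.16 ± 0.26 in model and 2.31 ± 0.26 in cornus against control. Control 4 was the lowest library for Zfp971, and for Zfp114, Zfp111, Zfp109, Zfp619 and Zfp40 as well. Zfp169, on chromosome 13, rose with the smallest SE among the 8: 3.74, 4.56, 5.44 and 4.35 CPM in control, 12.7, 13, 14.2 and 13.5 in model and 11.5, 12.2, 12.8 and 12.7 in cornus. Its log2 change in model was 1.56 ± 0.13 (edgeR adjusted p = 2.05e-05). Zfp40 rose by 1.28 ± 0.17. Zfp619, which has 33 fingers and was likewise under 50 counts in control, had a change of 1.46 ± 0.34.

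Some of these risers are neighbours. Zfp114, Zfp111 and Zfp109 lie side by side on chromosome 7, from 23874485 to 23936985. Zfp111 had 6.37, 5.56, 6.03 and 4.14 CPM in control, 23.8, 15.2, 15.6 and 23.6 in model and 18.6, 18.1, 11.6 and 13.3 in cornus. The log2 changes in model were 1.97 ± 0.27 for Zfp114, 1.82 ± 0.22 for Zfp111 and 1.74 ± 0.33 for Zfp109, and in cornus 1.58, 1.47 and 1.43. Zfp114 and Zfp109, under 50 counts in control, are members through the other groups, so their changes too are a description. The nearest members on either side did not pass in either comparison. Zfp235, next to Zfp114, had a change of 0.16 in model and Zfp61 of -0.06 (edgeR adjusted p = 0.332 and 0.738). Zfp94, at the far end, had 3.37, 3.61, 3.37 and 5.42 CPM in control and 1.94, 2.45, 2.56 and 2.28 in cornus, a log2 change of -0.77. Its mean of 35.2 counts in cornus was under 50, so it is a member through the groups where it was higher and this change is a description. These outer genes were named after their values were seen. On chromosome 4, Zfp990, Zfp268, Zfp982 and Zfp933 rose in model by 0.99, 1.19, 2.97 and 1.16, while Zfp992, Zfp985, Zfp979 and Zfp984 in the same stretch had 0.35, -0.95, -0.05 and -0.11 and did not pass (edgeR adjusted p = 0.0622, 0.0666, 0.909 and 0.778). The genes of this stretch other than Zfp982 were likewise named after their values were seen. Genes of such clusters can be near copies, and how reads that match several copies were counted is not given in the sources used here, so reads may be shared between neighbours and the value of a single copy is uncertain.

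**Figure D3:**
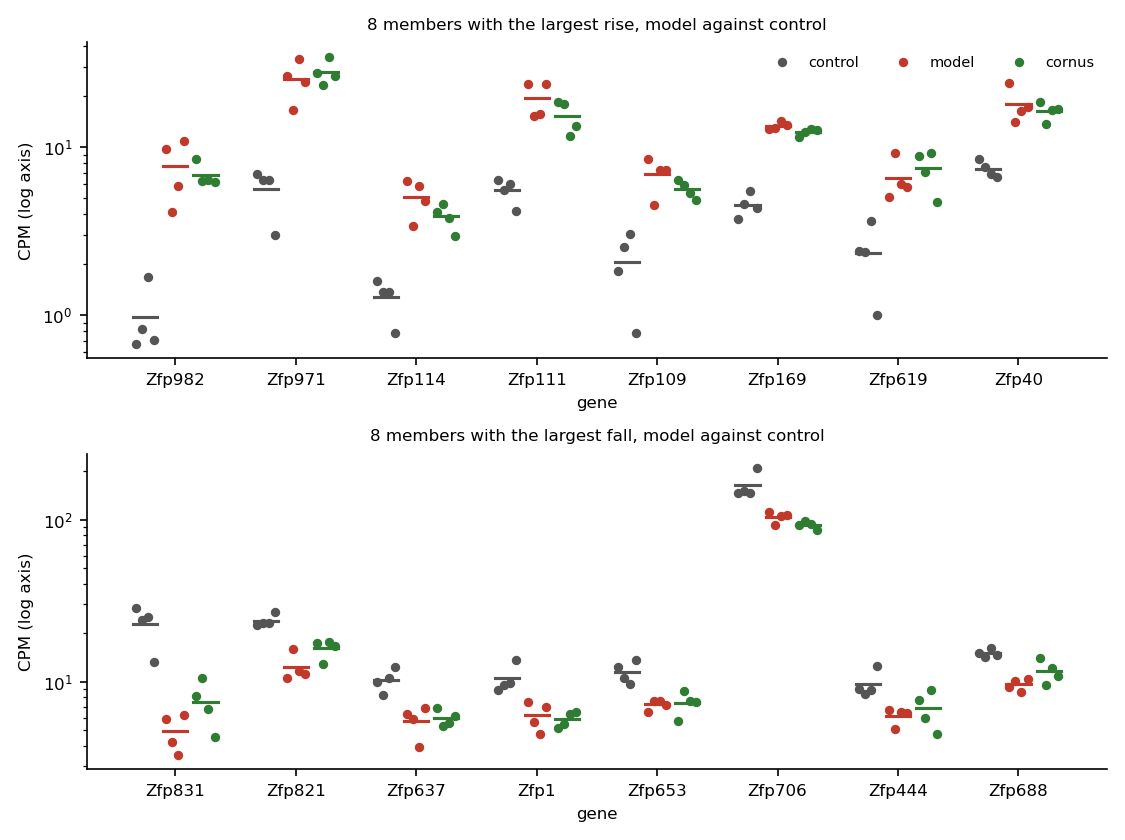
CPM on a log axis in each library (points; bars are group means of 4) for the 8 members with the largest rise (top) and the 8 with the largest fall (bottom) in model against control. Only members whose model and control values do not overlap could be picked, so the separation of these 2 groups in both panels was set by the choice.

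Of the 20 members that fell in model, 16 lacked the KRAB match; among the 8 with the largest fall, Zfp1 and Zfp688 have it. Zfp831, with 2 fingers, had 28.4, 24.1, 25.2 and 13.2 CPM in control, 5.87, 4.26, 3.54 and 6.23 in model and 8.13, 10.5, 6.80 and 4.56 in cornus. The log2 change was -2.19 ± 0.30 in model (edgeR adjusted p = 0.000196) and -1.61 ± 0.29 in cornus. Its lack of overlap with control was a condition of its choice. Zfp821 fell by 0.96 ± 0.15 on the log2 scale in model, from 22.4 to 26.8 CPM in control down to 10.5 to 15.9, and lay between in cornus (12.8 to 17.4). Zfp637, Zfp1 and Zfp653 fell in model by 0.83, 0.75 and 0.67 on the log2 scale. Zfp1 did not pass with the length trend removed (-0.45; edgeR adjusted p = 0.0664). Zfp706, a small protein with 1 finger known from the exit of mouse embryonic stem cells from self-renewal, had 147, 150, 145 and 209 CPM in control, 112, 92.1, 106 and 106 in model and 93.0, 98.5, 94.1 and 86.8 in cornus. Its log2 changes were -0.65 ± 0.12 and -0.81 ± 0.12 (edgeR adjusted p = 0.00114 and 0.000355). Zfp444 and Zfp688 each fell by 0.64 on the log2 scale. Zfp444 no longer passed without control 4 (edgeR adjusted p = 0.0686) or without model 2 (0.0605).

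Cornus against control gave a like picture with fewer rises. Here 72 members (26.2%) rose and 25 (9.09%) fell, against 18.9% and 19.4% of all tested genes. The members counted include those under 50 counts in control (11) or in cornus (8), which entered through the groups where they were higher. By the 12-library fit alone 86 (31.3%) were higher and 36 (13.1%) lower, against 24.0% and 23.6%. The lower count by that fit was 22 without cornus 1, where 2659 of 12549 tested genes were lower. The median log2 change was 0.12 (0.055 with upper-quartile factors), with -0.02 over all genes, and KRAB members had 43 rises and 8 falls where the others had 29 and 17. Both comparisons use the same controls. Zfp970, a KRAB gene on chromosome 2, was named for cornus alone: it had 2.76, 3.55, 3.37 and 5.99 CPM in control, 9.08, 4.94, 8.16 and 6.38 in model and 8.52, 6.47, 12.3 and 13.7 in cornus. It rose by 1.39 ± 0.30 in cornus (edgeR adjusted p = 0.00321), while its change of 0.87 ± 0.30 in model did not pass with controls 1 to 3 summed (edgeR adjusted p = 0.196). Zfp36 (tristetraprolin) had 133, 126, 129 and 140 CPM in control, 66.7, 136, 86.2 and 65.6 in model and 70.3, 64.4, 74.2 and 57.0 in cornus. It fell in cornus against control by 0.99 ± 0.20 on the log2 scale (edgeR adjusted p = 0.00214); in model, library 2 was at the control level and the change of -0.57 did not pass with controls 1 to 3 summed (edgeR adjusted p = 0.0921). Zfp553 fell in cornus by 0.81 and Zfp956 by 0.69 on the log2 scale. Zfp553 also fell in model, by 0.51, a call lost without control 3, control 4, model 1, model 2 or model 3 (edgeR adjusted p = 0.0528 to 0.0779; -0.29 without control 4). The call in model was also lost with the length trend removed (-0.42, edgeR adjusted p = 0.0829).

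Zfp961 is the 1 member that passed between cornus and model in the main fit. It is a KRAB gene with 11 fingers on chromosome 8 at 72704882 to 72747636, with a Length of 4334. The libraries stood at 19.7, 22.7, 19.3 and 20.4 CPM in control, 28.7, 25.8, 29.6 and 25.6 in model and 17.1, 17.7, 18.1 and 14.9 in cornus. Model lay above control and cornus below it, and no 2 groups overlapped. How many of all tested genes do so was not counted. It rose in model by 0.42 ± 0.10 (edgeR adjusted p = 0.00458, and 0.0261 with controls 1 to 3 summed). In cornus against model the log2 change was -0.69 ± 0.10 (edgeR adjusted p = 0.0232), and with the length trend removed -0.68 (0.0413). Against control the cornus change of -0.28 ± 0.10 passed with 12 libraries (edgeR adjusted p = 0.0332) and not with controls 1 to 3 summed (0.0910). The size of the cornus change against model held in all fits, at -0.79 to -0.64, but the call did not. It passed by DESeq2's Wald test (adjusted p = 1.22e-06) and by limma on log2(FPKM + 1) and log2(FPKM + 0.1) (0.00933 and 0.0140). By edgeR it passed with DESeq2 size factors (0.0241), with upper-quartile factors (0.0251) and without a filter (0.0265). With controls 1 to 3 summed the edgeR adjusted p was 0.109, with cornus and model alone in the fit 0.0703, and leaving out 1 library gave 0.0105 to 0.105. Of the fits without 1 library, it passed only without control 4, model 2 or cornus 2 (0.0105, 0.0432 and 0.0320), and not without any 1 of the other 9 libraries.

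**Figure D4:**
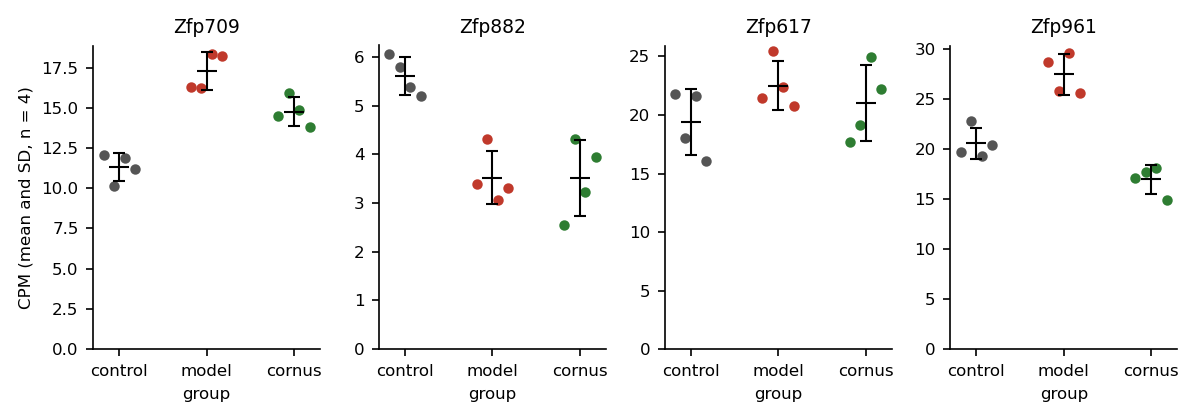
CPM by library (points), with mean and SD (n = 4), for Zfp961 and the 3 Zfp genes next to it on chromosome 8. Zfp961 lay at 25.6 to 29.6 CPM in model and 14.9 to 18.1 in cornus, while cornus and model overlapped for Zfp882 and Zfp617.

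The 3 Zfp genes next to Zfp961 were named for their position, and their difference from Zfp961 was not tested. Zfp709 rose in model by 0.61 and in cornus against control by 0.38 (edgeR adjusted p = 0.000602 and 0.00874; the latter 0.152 with the length trend removed), with means of 11.3, 17.3 and 14.8 CPM in control, model and cornus. The changes of Zfp882 in model (-0.67) and of Zfp617 (0.22) did not pass in both fits; these 2 genes overlap in the deposited positions, so reads may be shared. None of the 3 passed in cornus against model (log2 changes of -0.23, 0.00 and -0.10; edgeR adjusted p = 0.217, 0.999 and 0.718).

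Across the rest of the family no change passed between cornus and model by the main fit, while most values were lower in cornus. In cornus against model 0 members were higher and 1 lower by edgeR, where 0.0797% and 0.0717% of all tested genes passed in each direction. At an unadjusted p under 0.05 in edgeR, 9 of 275 members were higher and 47 lower, against 1256 and 1359 of 12549 genes. Members thus leaned to lower values more than all genes did. DESeq2 called 2 members (0.727%) higher and 11 (4%) lower, against 3.53% and 3.16% of all tested genes. With limma on log2(FPKM + 1) 0 were higher and 12 (4.36%) lower, against 0.462% and 3.92%. By edgeR without control 4 there were 2 (0.727%) and 10 (3.64%), against 3.90% and 3.95%. In each of these fits the lower share was near that of all genes and the higher share was below it. The median log2 change was -0.08 over members and -0.02 over all genes, and 34.9% of members had the higher value in cornus. KRAB members had a median of -0.10 and the others of -0.03.

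The members with the highest level per length were Zfp207, Zfp740, Zfp445, Zfp692, Zfp36 and Zfp217, at mean FPKM of 60.0, 31.3, 29.9, 29.8, 27.5 and 24.9. Zfp207 (BuGZ), which carries Bub3 to the mitotic spindle, had 346, 345, 351 and 357 CPM in control, 418, 417, 403 and 438 in model and 436, 441, 440 and 401 in cornus. It rose in cornus against control by 0.30 ± 0.07 (edgeR adjusted p = 0.00437; 0.0962 with the length trend removed), and its change of 0.26 in model did not pass with controls 1 to 3 summed (edgeR adjusted p = 0.0684). Zfp740 fell in both, by 0.47 and 0.48 on the log2 scale. Zfp692 had changes of -0.01 and 0.31 that did not pass. Zfp217, a partner of the CoREST repressor complex, rose in cornus by 0.42 ± 0.12.

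Among members with a known role in repression, Zfp445, which guards imprinted regions together with Zfp57, had 170, 167, 175 and 114 CPM in control, 245, 235, 243 and 213 in model and 279, 249, 309 and 262 in cornus. It rose by 0.58 ± 0.13 and 0.81 ± 0.13 (edgeR adjusted p = 0.00374 and 0.000580). Zfp809, which silences murine leukemia viruses in mouse embryonic stem cells, rose by 0.54 ± 0.13 and 0.58 ± 0.13, from 15.0 to 20.7 CPM in control to 23.2 to 32.5 in model and 25.5 to 29.6 in cornus. Zfp148 (ZBP-89), which binds GC-rich promoters, rose by 0.63 ± 0.08 and 0.61 ± 0.08 (0.39 and 0.33 with the length trend removed). Zfp281, known from the repression of pluripotency genes, rose in cornus by 0.44 ± 0.12 and had 0.34 in model, which did not pass in both fits. Zfp703, a corepressor without a C2H2 match, fell in model by 0.57 ± 0.14. Of the roles list, 19 of 23 genes are members; Zfp42, Zfp57, Zfp521 and Zfp683 fell short of the count.

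Other members have known roles in blood cells, splicing or transcription. Zfp318, which lets mature B cells make IgD, had 22, 25, 26 and 29.4 CPM in control, 21.9, 20.2, 17.8 and 23.4 in model and 14.7, 15.3, 15.8 and 18.6 in cornus. It fell in cornus against control by 0.67 ± 0.12 on the log2 scale (edgeR adjusted p = 0.00128; -1.09 with the length trend removed), and its change of -0.30 in model did not pass (edgeR adjusted p = 0.0648; -0.64 with the length trend removed). Of the 10 B lineage markers 9 fell in cornus and 8 in model; their part in the change of Zfp318 was not tested. Zfp335, part of a histone H3 lysine methyltransferase complex needed by maturing T cells, rose by 0.29 ± 0.10 in model and 0.52 ± 0.10 in cornus. Its call in model was lost without control 1, control 3, control 4, model 2 or model 3 (edgeR adjusted p = 0.0502 to 0.0830). Zfp326, of a complex that links splicing to transcription, rose in cornus by 0.30 ± 0.11, a call lost without control 3, control 4, cornus 2, cornus 3 or cornus 4 (0.0535 to 0.0793 by edgeR, adjusted). That call was also lost with the length trend removed (0.17, edgeR adjusted p = 0.198). Zfp410, the activator of the Chd4 gene, had changes of 0.02 and -0.17 and did not pass. Neither did Zfp91 (a ubiquitin ligase), Zfp106 (an RNA-binding protein), Zfp143 (an activator at promoters), Zfp384 or Zfp830 in either comparison with control; their log2 changes lay between -0.04 and 0.20.

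The partners of KRAB proteins were taken from a list of 32 repression genes, all tested. In model against control 12 rose and 2 fell, with a median log2 change of 0.18, where 17.7% and 15.9% of all tested genes rose and fell. In cornus against control 10 rose and 5 fell, with a median of 0.17 (0.06 with the length trend removed), against 18.9% and 19.4% of all genes. No gene of the list passed in cornus against model. Tasor, the scaffold of the HUSH silencing complex, had 23.9, 26.8, 19.8 and 13.2 CPM in control, 77.7, 69.2, 66.8 and 67.2 in model and 71.9, 71.8, 78.1 and 67.7 in cornus. It rose by 1.74 ± 0.17 and 1.79 ± 0.17 (edgeR adjusted p = 3.06e-05 and 3.73e-05). The other HUSH genes, Mphosph8 and Pphln1, rose by 0.50 and 0.59 in model, the chromatin remodeler gene Atrx by 1.07, Dnmt1 by 0.72, Smarcad1 by 0.71 and Setdb1 by 0.68. With the length trend removed Atrx stood at 0.61 and Smarcad1 at 0.39. Trim28, which KRAB domains bind, had 214, 214, 211 and 304 CPM in control, 191, 165, 171 and 201 in model and 139, 159, 148 and 149 in cornus, and fell by 0.37 ± 0.12 and 0.67 ± 0.12 on the log2 scale (edgeR adjusted p = 0.0267 and 0.00129). Without control 4, its highest library, the change in model was -0.23 (edgeR adjusted p = 0.0385). The call in model was lost without model 2 or model 3 (0.0626 and 0.0730 by edgeR, adjusted) and with the length trend removed (-0.29; 0.0886). Mbd3, of the NuRD complex, fell by 0.65 and 0.80, with -0.35 and -0.47 when the length trend was removed; its call in model was then lost (edgeR adjusted p = 0.0559). Of other C2H2 families in model against control, 11 of 37 Zbtb genes rose and 4 fell, 3 of 9 Zkscan genes rose and 1 fell, and 2 of 9 Zscan genes rose and none fell by edgeR.

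**Figure D5:**
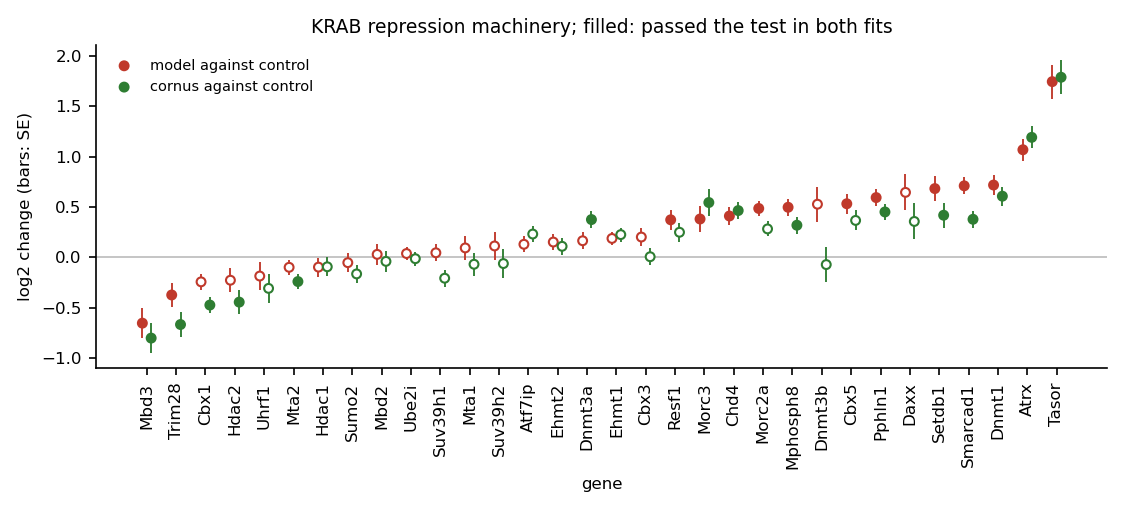
Log2 change with SE of the 32 genes of KRAB repression in model (red) and cornus (green) against control, ordered by the change in model; filled points rose or fell. Tasor and Atrx lie highest and Mbd3 and Trim28 lowest.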

How the data were processed

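Per the submitters' processing notes, the tools were fastp 0.22.0 (trimming), HISAT2 2.1.0 (alignment) and HTSeq 0.9.1 (counting); the build, annotation and strand setting are not given in the sources used here. The deposited table holds whole read counts per gene and sample, which were tested, and FPKM, which the authors made from those counts and the deposited Length and which served for levels per length and as an alternative. The depth of 13902122 to 19139771 counts sets the counting error, and intervals other than the SE are not given.

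Counts were fitted in R 4.3.3 with edgeR 4.0.16 (TMM, filterByExpr, quasi-likelihood F test, 12 libraries, group as the only term, Benjamini-Hochberg over 12549 genes). CPM are TMM-scaled; log2 CPM used a prior count of 2; the SE is taken as the size of the log2 change divided by the root of F. The length trend was removed with an offset per library from a loess of log2 CPM deviation on log2 Length (span 0.5). Alternatives used DESeq2 1.42.0 and limma 3.58.1. The fit was tested on simulated data. Coding sequences were translated with Biopython and searched with letter patterns, so finger and KRAB matches are descriptions. The members, lists and tests were chosen with earlier results of these data known. Named were Zfp961, the 8 largest rises and falls per comparison among called members without overlap, the 6 highest by FPKM, the members at the threshold and a list of 23 genes with known roles. The check of the replicate numbers is given with the alternatives.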

Additional observations from a re-analysis of the deposited data

Results flagged for a closer look

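Within the model and cornus groups, 84 sets of 4 values (42 named members) were examined for a library far from the other 3, and 5 had one; chance gives about 1 in 20. The controls were not examined, since controls 1 to 3 count as 1 sample. Zfp982 was at 8.52 CPM in cornus 1 against 6.16 to 6.33 in the other cornus libraries, and Zfp410 at 37.6 CPM in cornus 1 against 45.8 to 46.9. Zfp821 was at 12.8 CPM in cornus 2 against 16.7 to 17.4. Zfp207 was at 401 CPM in cornus 4 against 436 to 441. Zfp444 was at 5.08 CPM in model 2 against 6.43 to 6.67.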

How the results depend on the processing

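The members' median log2 change kept its sign in every alternative run. Member counts in this section are by 1 fit each, without the 2-fit rule that gave 84 rises and 20 falls in model against control. By the 12-library fit alone they were 110 higher and 28 lower for model against control and 86 and 36 for cornus against control. Leaving out 1 library gave 88 to 110 members higher and 20 to 28 lower for model against control. For cornus against control it gave 77 to 87 and 22 to 36, and for cornus against model 0 to 2 and 0 to 10. In these fits 2387 to 2913 of 12549 tested genes were higher and 2133 to 2727 lower for model against control. For cornus against control 2640 to 3056 were higher and 2419 to 2939 lower. For cornus against model the counts were 0 to 490 and 0 to 496. In model against control the lower count went from 28 in the 12-library fit to 18 with limma on log2(FPKM + 0.1). It was 15 with limma on log2(FPKM + 1) without a filter and 18 with the length trend removed. Of all tested genes 2014 of 12549, 2085 of 17168 and 1915 of 12549 were lower in these fits, respectively. The median was 0.30 with limma on log2(FPKM + 0.1). In cornus against model the lower count was 11 with DESeq2 (2 higher), against 3.16% of all genes (3.53% higher). It was 12 and 10 with limma at a pseudocount of 1 and 0.1, against 3.92% and 3.77%. With limma on log2(FPKM + 1) without a filter it was 4, against 1.77%. It was 0 with only the groups compared or with controls 1 to 3 summed, against 0% of all genes. The 3 limma medians were -0.14, -0.18 and -0.14. In cornus against control the median was 0.055 with upper-quartile factors. The cause was not tested. The length correlation in model against control was 0.23 by Pearson and 0.21 without a filter, and in cornus against control 0.26 by Pearson, 0.24 without a filter and 0.31 with limma without a filter; in cornus against model it was 0.036 with limma without a filter. Removing the trend left 0.0079 for model against control, 0.018 for cornus against model and 0.022 for cornus against control, by construction. With it removed, Zfp638 was at -0.025 in model and -0.035 in cornus and Zfp451 at -0.13 in cornus, against control. Smarcad1 was then at -0.018 in cornus against control, an alternative added after seeing the data.

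Replicate numbers are shared by the groups, but no label says that equal numbers are pairs, and the main fit did not take them as pairs. Of 12 same-number pairs, 7 had a correlation of deviations over 0.1 (-0.14 to 0.45). Pairs of unlike number were not examined, so these values cannot decide whether the samples are paired. With the replicate block 106 members were higher and 27 lower for model against control, and 88 and 33 for cornus against control. It gave 0 and 0 in cornus against model, where Zfp961 had an adjusted p of 0.0574 by edgeR. Of 12549 tested genes the block fit gave 2922 higher and 2804 lower for model against control. For cornus against control it gave 3107 and 3151 genes, and for cornus against model 0 and 0. Members at low counts have wide errors: the SE was 0.37 for Zfp982 and 0.07 for Zfp207.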
